A study of Mus musculus with 3 samples.

Results

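Weak testis windows are 10 kb stretches of the mouse genome with a low but countable yield of small RNA in adult testis. They were chosen by tiling each chromosome from its start and assigning every read to a window by its left end. Windows with 10 to under 100 RPM (reads per 1000000 reads) in the testis library were kept. All lengths were counted, and the mitochondrial chromosome was left out. The upper limit is part of the rule, and no definition of a PIWI-interacting RNA (piRNA) cluster was applied. Of 119249 windows with a read in any library, 901 met this rule. Their number, their testis reads and their testis level were set by the rule and are given as a description. Windows of 100 RPM or more, 302 in all, are called strong windows below, and the 23236 windows under 10 RPM with at least 1 testis read are called faint windows.

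The series holds 3 libraries, 1 per group, from mouse. The first is an RNA immunoprecipitate with a rabbit polyclonal antibody against MIWI2 (PIWIL4) from MEL cells, an established line (ATCC TIB-55) of erythroblasts transformed by Friend virus. The second was made with the same antibody from splenocytes that were not fractionated, taken from C57Bl6/J mice at 10 weeks of age. The third, from adult testis of mice of the same strain and age, used no antibody: its total RNA was separated on 18% polyacrylamide and only material of about 29 nt was taken. With 1 library a group no difference has a replicate check, and the intervals given are 95% intervals that cover counting error only. In such tissue libraries fewer cells of a type and less RNA per cell cannot be told apart. Marker genes of the labelled cells were not checked here, because the files carry positions and no gene annotation of their genome build was used.

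PIWI proteins are Argonaute-family proteins that bind piRNAs, small RNAs longer than microRNAs that are known from the germ line, where they direct the silencing of transposons. In the adult mouse testis most piRNAs come from a limited set of long precursor transcripts, whose genomic sources are called piRNA clusters, and smaller amounts come from messenger RNAs and from transposon copies. The adult testis expresses MILI and MIWI, of which MILI carries the shorter piRNAs and MIWI the longer ones, while MIWI2 is best known from the fetal testis. The design text of the series states that the piRNAs bound by MIWI2 in erythropoietic cells were sought. The weak windows show what lies below the strong windows in the testis reference and what the immunoprecipitates hold there.

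The testis library held 1143785 reads, the MEL library 823452 and the spleen library 692011, so that 3 reads, used here as the floor for a count of 0, stood for 2.62, 3.64 and 4.34 RPM. The weak windows held 27620 testis reads, or 2.41% of the library (2.39 to 2.44). The strong windows held 94.09% (94.05 to 94.13) and the faint windows 3.49% (3.46 to 3.53). A weak window had 12 to 113 reads with a median of 22, against a median of 1151 in a strong window and 1 in a faint window. At the lower threshold 72 windows had 12 reads (10.49 RPM) and were inside, while 90 windows had 11 reads (9.62 RPM) and were outside. At the upper threshold the window on chromosome 10 from 62110001 to 62120000 was the last inside with 113 reads (98.79 RPM), and the window on chromosome 14 from 9200001 to 9210000 the first outside with 115 (100.5 RPM). These windows lay within a few reads of each other, so both limits are a matter of convention.

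Most of the weak windows carried reads of piRNA length. In 764 of the 901 the commonest length lay between 29 and 32 nt, in 36 between 24 and 28 nt, in 28 between 20 and 23 nt (the range of microRNAs) and in 73 under 20 nt. A length of 30 nt was the most frequent in 459 windows, 29 nt in 211 and 31 nt in 92. Over all their testis reads 85.13% (84.71 to 85.55) were 24 to 32 nt long, a share lower than the 94.5% (94.46 to 94.55) of the strong windows and higher than the 76.34% (75.92 to 76.76) of the faint ones. The difference lay in the short reads: reads of 17 nt or less made up 6.95% in the weak windows, 0.284% in the strong and 12.05% in the faint windows. Among the 24 to 32 nt reads alone, 78.6% (78.07 to 79.13) were 29 to 32 nt long in the weak windows and 80.61% (80.53 to 80.68) in the strong ones. Within the piRNA range the mean length was 29.32 nt and 29.42 nt, so the length profile differed little between the levels. The gel step favours lengths near 29 nt in all testis windows alike.

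**Figure D1:**
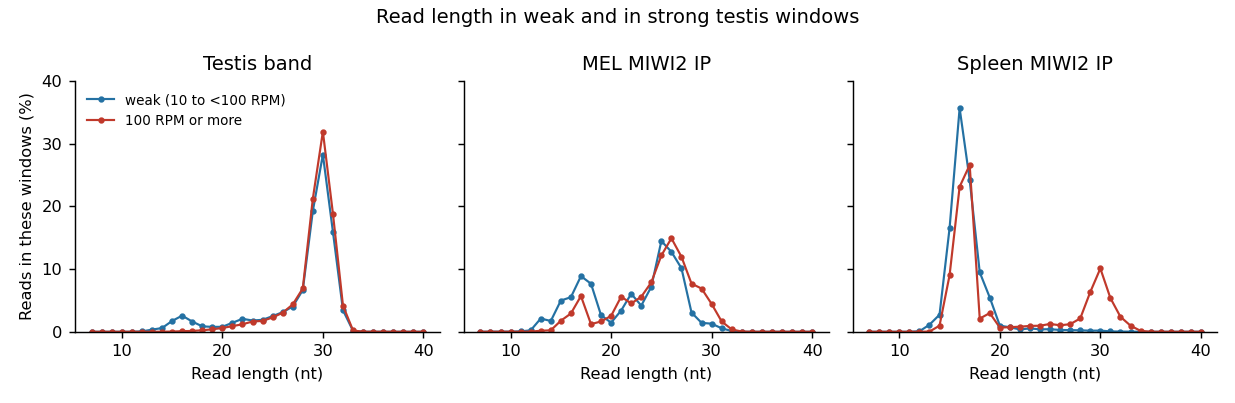
Read length in the testis band and in the 2 MIWI2 immunoprecipitates (IP), as the percentage (y axis) of the reads of each length in nt (x axis), over the 901 weak windows (blue) and the 302 strong windows (red). In testis both lines peak at 30 nt, with 28.27% of the weak-window reads there, and a small second rise of short reads appears in the weak windows; in spleen reads of 17 nt or less are 80.36% of the weak-window reads and those of 30 nt 0.189%.

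The weak windows were read at many positions. The median weak window had 14 distinct left ends (quartiles 9 and 23, highest 86), and its most-read interval (reads with the same start and end) held 13.64% of its reads. A distinct interval was read 1.46 times on average, against 4.34 times in the strong windows. In 63 windows every read had a left end of its own, and 11 windows had a single left end. At least 20 left ends were found in 280 of the 901 windows. Reads of a weak window touched a median of 4 of its 10 kilobases, against 9 in a strong window. In 86 windows 50% or more of the reads lay on 1 interval, and the lengths divided here: this held for 50 of the 73 windows with a most frequent length under 20 nt, for 9 of the 28 of 20 to 23 nt, for 3 of the 36 of 24 to 28 nt and for 24 of the 764 of 29 to 32 nt. The median number of left ends was 3, 4, 7 and 16 in the same order, at median levels of 16.61, 20.98, 14.86 and 19.23 RPM. The windows of under 20 nt thus had levels close to those of 29 to 32 nt but were read at few places.

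**Figure D2:**
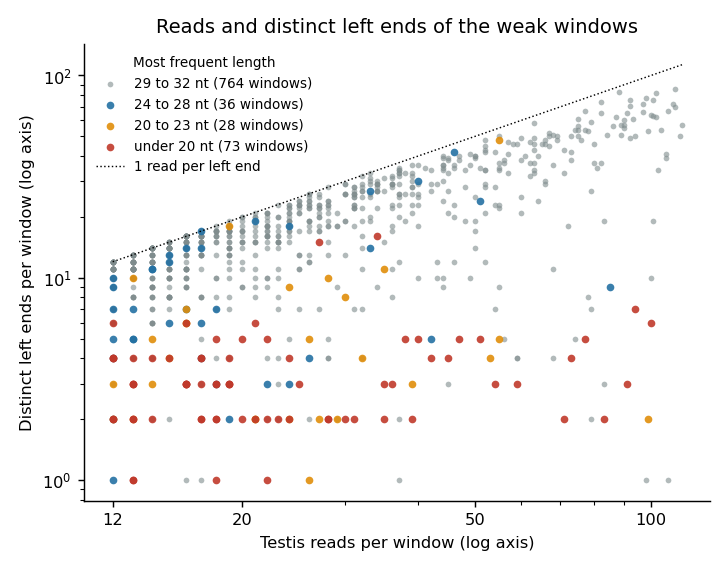
Testis reads (x axis, log) and distinct left ends (y axis, log) of each of the 901 weak windows, coloured by the most frequent testis read length; the dotted line is 1 read per left end. The 764 windows of 29 to 32 nt (grey) mostly lie near the line and reach 86 left ends, while most of the 73 windows of under 20 nt (red) stay at or below 5.

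The windows with most left ends show the spread form. The window on chromosome 3 from 20350001 to 20360000 had 110 testis reads on 86 left ends in 7 of its 10 kilobases, 94.55% of them 24 to 32 nt long. It had 3 MEL reads and 0 spleen reads, the latter with a 95% upper limit of 5.33 RPM. Chromosome 4 from 41760001 to 41770000 had 88 testis reads on 83 left ends, with reads in all 10 kilobases and 2.27% on the most-read interval. MEL had 13 reads there and spleen 0. On chromosome 10 from 85200001 to 85210000 there were 102 testis reads on 82 left ends, 4 MEL reads and 0 spleen reads. Of these 3 windows, those on chromosomes 3 and 10 lay next to a strong window, and that their testis reads were many follows from how they were picked. The opposite form was seen on chromosome 4 from 131680001 to 131690000, a window picked after seeing its values, where all 107 testis reads, most often of 30 nt, shared 1 left end. MEL had 18 reads in that window, 1 of them 24 to 32 nt long, and spleen had 6.

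Weak windows were dense beside strong windows, but most lay far from any. Of the 901, 96 (10.65%, 8.72 to 12.86) were next to a strong window, 65 lay within 100 kb, 156 between 100 kb and 1 Mb and 550 (61.04%, 57.77 to 64.24) further than 1 Mb. The other 34 were on chromosome names without a strong window, 33 of them on chromosome 16. Over the 867 windows with a strong window on the same name the median distance was 2.49 Mb, with an upper quartile of 9.97 Mb and a maximum of 96.11 Mb. Of the 294 windows directly next to a strong window 32.65% (27.32 to 38.34) were weak. The share fell to 8.83% (5.8 to 12.76) in the 283 windows 1 step further and to 3.62% (1.75 to 6.56) in the 276 after those, and it was 0.405% to 2.73% at 40 to 190 kb. Among all windows with a read that lay further than 1 Mb or on a name without a strong window, 0.547% were weak. Levels also differed by neighbourhood: weak windows of 29 to 32 nt had a median of 33.22 RPM and 25 left ends next to a strong window, and 18.36 RPM and 15 left ends beyond 1 Mb.

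Inside the windows next to a strong one, reads lay on the near side. In the 91 adjacent weak windows with a strong neighbour on 1 side, 32.94% (31.53 to 34.37) of 4284 testis reads fell in the nearest kilobase and 76.7% in the nearest 5. The farthest kilobase held 2.5% (2.05 to 3.01). An even spread would put 10% in each. The remaining 5 adjacent windows lay between 2 strong ones. All but 1 of the 96 had a most frequent length of 29 to 32 nt. The exception was on chromosome 13 from 21260001 to 21270000, with 32 testis reads most often of 22 nt, 499 MEL reads and 21 spleen reads.

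**Figure D3:**
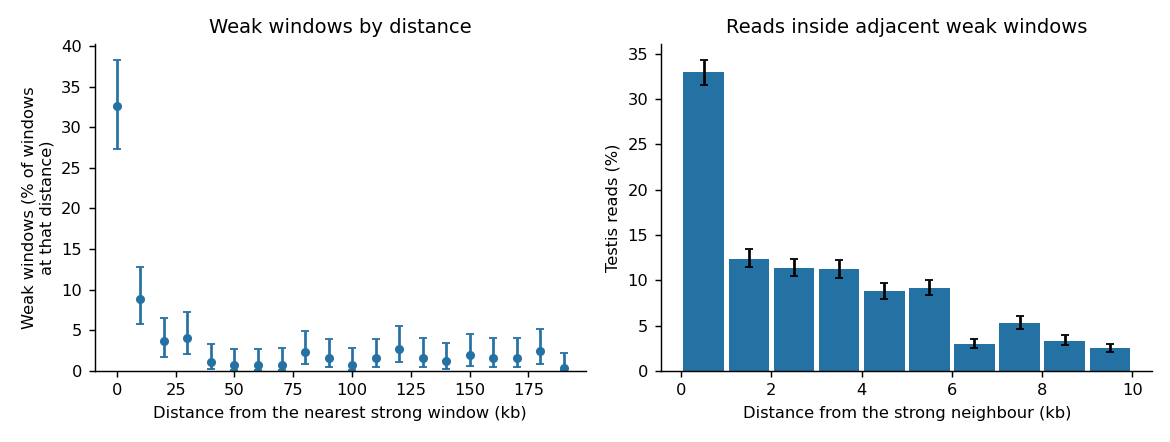
Left, the percentage of windows that are weak (y axis) by their distance in kb from the edge of the nearest strong window (x axis), with 95% binomial intervals; right, the percentage of testis reads (y axis, 95% binomial intervals) by distance in kb from the strong neighbour inside the 91 adjacent weak windows with a strong window on 1 side. The share of weak windows starts at 32.65% and stays under 5% from 20 kb on, and 32.94% of the reads of adjacent windows lie in the first kilobase.

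Most weak windows were single. When weak windows were joined across gaps of no more than 1 window, they formed 747 runs, of which 632 were 1 window and 115 held 2 to 5. The run of most weak windows was on chromosome 19 from 4770001 to 4820000, with 5 windows over 50 kb, 173 testis reads on 143 left ends (151.3 RPM in all) and 97.11% of the reads 24 to 32 nt long. The widest, on chromosome 10 from 80840001 to 80900000, spanned 60 kb with 4 windows and 69 testis reads. On chromosome 19 the run held 31 MEL reads, 25 of them 24 to 32 nt long, and 0 spleen reads. Of the 8 runs of 4 windows, the 2 with most testis reads lay next to a strong window. They were on chromosome 10 from 86090001 to 86130000, with 227 testis, 11 MEL and 7 spleen reads, and on chromosome 3 from 20350001 to 20400000, with 223, 6 and 1. The immunoprecipitates thus had few reads in these runs, whose testis level was set by the rule. Summed over the run, 22 runs reached 100 RPM, and 15 of these were not next to a strong window. By chromosome, weak windows made up 0.482% to 1.03% of the windows with a read on the autosomes and 0.294% on the X chromosome (17 of 5773). Among the weak windows farthest from a strong one, with at least 10 left ends and mostly piRNA-length reads, was chromosome 12 from 4100001 to 4110000, at 95.51 Mb. It had 37 testis reads on 25 left ends, 97.3% of them 24 to 32 nt long, 19 MEL reads, 14 of them 24 to 32 nt long, and 4 spleen reads. On the X chromosome from 137330001 to 137340000, at 84.45 Mb, testis had 32 reads on 19 left ends, MEL 6 and spleen 9.

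In reads of all lengths the weak windows held about a like share of both immunoprecipitates, but in reads of 24 to 32 nt the shares differed. The 901 windows, 0.756% of the windows with a read, held 25.39% (25.3 to 25.49) of the MEL library and 24.54% (24.44 to 24.64) of the spleen library. For the 24 to 32 nt reads the shares were 37.13% (36.95 to 37.3) in MEL and 5.32% (5.15 to 5.5) in spleen. In the strong windows lay 10.09% of the MEL library and 5.25% of the spleen library, and in the faint windows 29.45% and 35.95%. For the 24 to 32 nt reads the faint windows held 31.14% in MEL and 64.28% in spleen. The testis share of 2.41% was fixed by the rule. Relative to it the weak windows held 10.52-fold more of MEL and 10.16-fold more of spleen, and the faint windows, relative to their testis share, 8.43-fold and 10.29-fold more, so an excess over testis was not particular to the weak windows. Few windows carried these sums. In MEL 9 of the 901 windows held 50% of the reads and in spleen 5, whereas the median window had 4 MEL reads and 0 spleen reads. Without the 10 windows with most reads of the library the shares were 11.76% and 5.21%. No MEL read was found in 107 windows, no spleen read in 504, and neither in 80.

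These shares divided by the testis read length of the windows. The 73 windows of under 20 nt held 23.41% (23.31 to 23.51) of the spleen library and 7.97% (7.92 to 8.03) of the MEL library on 0.184% of the testis reads. The 36 windows of 24 to 28 nt held 10.39% (10.33 to 10.46) of the MEL library, or 23.08% (22.93 to 23.24) of the MEL reads of 24 to 32 nt, but 0.47% of the spleen library. The 28 windows of 20 to 23 nt held 1.27% of MEL and 0.0426% of spleen. The 764 windows of 29 to 32 nt, 84.79% of all weak windows, held 5.75% of MEL and 0.619% of spleen, and without the 1 window on chromosome 6 that held most MEL reads their share of MEL was 3.19%. The spleen share was above the MEL share in the windows of under 20 nt and below it in the 3 other classes.

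Calls were made at 4-fold or more, counting any library with fewer than 3 reads as having 3. MEL was higher than testis in 79 of the 901 weak windows, where 76.6% of the 5234 windows reaching 10 RPM in either library were called so. Spleen was higher than testis in 59, where 72% of 7408 windows were. Testis was higher than MEL in 353, against 11.9% of the 5234, and higher than spleen in 411, against 9.45% of the 7408. In 203 of the 353 and 364 of the 411 the immunoprecipitate had fewer than 3 reads, so these calls rest on the floor. At 2-fold MEL was higher in 102 (78.6% of the 5234) and spleen in 77 (84.5% of the 7408). Testis was then higher in 653 (17.9%) and 757 (14.3%), of which 348 and 667 had the immunoprecipitate under 3 reads. With 24 to 32 nt reads scaled to those reads, MEL was 4-fold higher in 68 of 811 weak windows that could be compared and testis in 68, against 41.5% and 8.56% of 3307 windows. For spleen the numbers were 46 and 0 of 802, the latter because such a call needed 183.6 RPM, against 25.6% and 4.43% of 4673. Of the 68 testis calls over MEL, 40 had fewer than 3 such MEL reads. The rule fixed the testis side of these comparisons, so nothing is read from the shares. A call for testis needed 14.57 RPM against MEL and 17.34 RPM against spleen, which 604 and 497 of the weak windows had. In 41 windows both immunoprecipitates were higher than testis, in 38 only the MEL call was made and in 18 only the spleen call. By length, 24 of the 41 were windows of under 20 nt, 9 of 29 to 32 nt, 7 of 24 to 28 nt and 1 of 20 to 23 nt. The 38 were 17 windows of 29 to 32 nt, 15 of 20 to 23 nt, 6 of 24 to 28 nt and 0 of under 20 nt, and the 18 were 13, 3 and 2 of under 20, 29 to 32 and 24 to 28 nt.

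**Figure D4:**
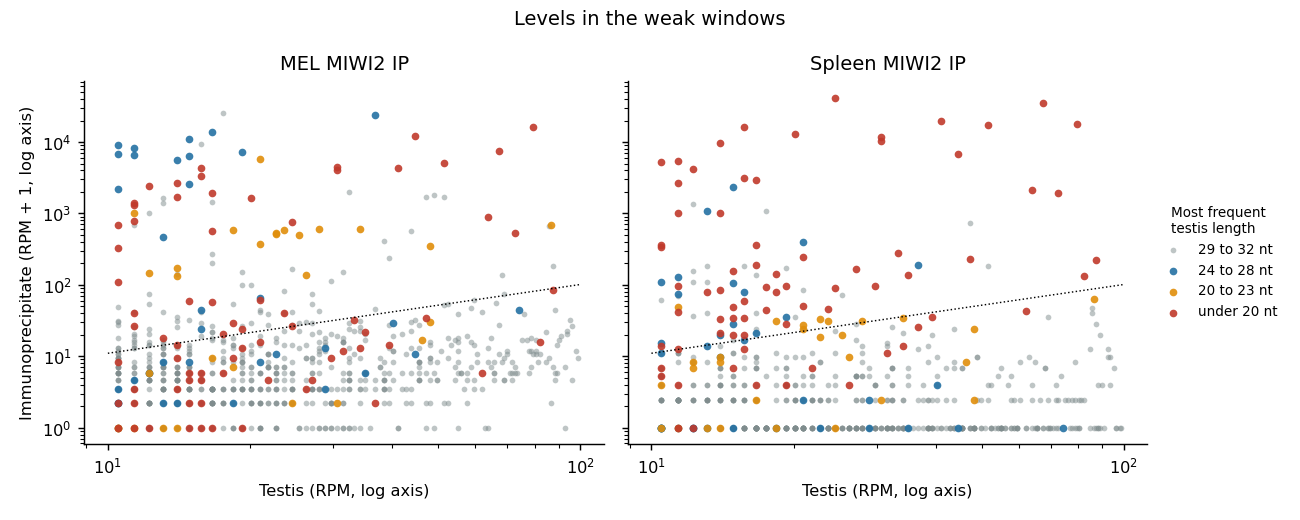
Level of each weak window in the MEL (left) and spleen (right) MIWI2 immunoprecipitate as RPM + 1 (y axis, log) against its testis level in RPM (x axis, log), coloured by the most frequent testis read length; the dotted line marks equal levels. Most grey windows (29 to 32 nt) lie below the line in both panels, the blue windows (24 to 28 nt) reach 23555 RPM in MEL, and the red windows (under 20 nt) reach 41994 RPM in spleen.

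Most spleen reads in the weak windows were short reads at a few places. The window on chromosome 12 from 98800001 to 98810000 had 28 testis reads (24.48 RPM, 16.27 to 35.38), 625 MEL reads (759.0 RPM) and 29060 spleen reads (41994 RPM, 41512 to 42479). It was 1715-fold higher in spleen than in testis. The most-read interval, 98801761 to 98801776, was the same in all 3 libraries and held 96.43% of the testis, 91.84% of the MEL and 96.18% of the spleen reads. A second window, on chromosome 13 from 52960001 to 52970000, had 77 testis, 6231 MEL and 24584 spleen reads, most often of 17 nt in each library. The interval from 52968644 to 52968660 held 64.94%, 58.0% and 60.86% of them. Next by spleen reads was chromosome 2 from 73310001 to 73320000, with 47 testis, 3600 MEL and 13473 spleen reads, most often of 17 nt. Its most-read interval, 73319566 to 73319582, held 53.19%, 56.92% and 60.83%. These 3 windows were stacked in each library. Chromosome 14 from 54560001 to 54570000 had 91 testis, 13161 MEL and 12360 spleen reads (79.56, 15983 and 17861 RPM), most often of 18 nt. The most-read interval was again the same in the 3 libraries, but it held under 50% in each, 35.16%, 39.62% and 49.11%. In each of these 4 windows 0 reads of any library were 24 to 32 nt long. Over the 73 windows of under 20 nt, a left end that testis also had was found for 95.03% of the spleen reads and 95.42% of the MEL reads. Counted as distinct left ends, 45.95% (170 of 370) in spleen and 40.26% (122 of 303) in MEL were shared, so the shared ends were the more-read ones. How reads with several genomic matches were treated is not given in the sources used here, and their part in these windows was not tested.

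The MEL reads in the windows of 24 to 28 nt were mostly of piRNA length. The window on chromosome 3 from 153570001 to 153580000 had 42 testis reads (36.72 RPM, 26.46 to 49.64) on 5 left ends, 19396 MEL reads (23555 RPM, 23224 to 23888) on 37 left ends and 130 spleen reads (187.9 RPM). MEL was 641.5-fold higher than testis there, and 16332 of its reads were 24 to 32 nt long. Chromosome 3 from 51160001 to 51170000 had 19 testis reads, 11374 MEL reads, 9338 of them 24 to 32 nt long, and 14 spleen reads. Its most-read interval began at 51163329 in both testis and MEL. In the window named before it the most-read intervals differed, 153575144 to 153575167 in testis and 153574630 to 153574654 in MEL. MEL was the highest library in both windows, which lay 29.44 and 16.38 Mb from a strong window. In the first of them spleen was also 5.12-fold higher than testis, and in the second 1.22-fold. Of the 36 windows, 13 were at least 4-fold higher in MEL, where 76.6% of all windows compared were, and they held 99.73% of the MEL reads of the 36. Over all 36 windows MEL was 149.0-fold higher than testis in reads of all lengths. The other 23 windows, left for not being high in MEL, had 152 MEL reads of 24 to 32 nt against 524 in testis. Scaled to all reads of each library, testis was 2.48-fold higher there (2.12 to 2.93). Scaled to reads of that length, this fold would be smaller.

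One window of 29 to 32 nt stood with these. On chromosome 6 from 47730001 to 47740000 testis had 20 reads (17.49 RPM, 10.68 to 27.01), all 24 to 32 nt long and most often 29 nt, on 9 left ends. MEL had 21087 reads (25608 RPM, 25264 to 25956), 19370 of them 24 to 32 nt long and most often 27 nt, and spleen had 740 (1069 RPM, 993.7 to 1149), most often 25 nt. MEL was 1465-fold and spleen 61.16-fold higher than testis, so both immunoprecipitates exceeded testis. The most-read interval ended at 47738179 in testis and in MEL, and began at 47738151 in testis and at 47738154 in MEL.

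The windows of 20 to 23 nt were the smallest group. The one with most testis reads, on chromosome 3 from 20070001 to 20080000, had 99 testis reads on 2 left ends, 557 MEL reads and 43 spleen reads, most often of 21, 21 and 22 nt. MEL was higher at 676.4 RPM than testis at 86.55 and spleen at 62.14. The window with most MEL reads, on chromosome 5 from 31190001 to 31200000, had 24 testis reads, 4709 MEL reads, most often of 27 nt, and 18 spleen reads. MEL was at least 4-fold higher than testis in 16 of the 28 windows, where 76.6% of all windows compared were, and spleen in 1, where 72% were. Both examples were picked as the highest of their group after their values were seen.

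The 764 windows of 29 to 32 nt were split by these calls. Over all of them MEL was 2.75-fold higher than testis in reads of all lengths and spleen was at 0.296 of testis. MEL was called higher than testis in 26, where 76.6% of all windows compared were, and spleen in 12, where 72% were. In the other 738 MEL had 3363 reads of 24 to 32 nt against 21813 in testis, 4.67-fold fewer after scaling to the library (4.51 to 4.83). In the 752 windows not called for spleen, it had 425 against 22251, or 31.68-fold fewer (28.8 to 34.92). Both folds were scaled to all reads of each library. Reads of 24 to 32 nt were 93.64% of the testis, 34.9% of the MEL and 9.45% of the spleen library. Scaled to reads of that length, both differences would be smaller. The 26 windows held 89.72% of the MEL reads of the 764, and in testis they had a median of 7.5 left ends, with 25.66% of reads on 1 interval, where the 738 had 16 left ends and 11.76%. The windows left were chosen for not being high in the immunoprecipitate, and the rule fixed their testis level, so these folds describe them and are no estimate for all 764.

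Lengths were compared next. Over all 764 windows the MEL reads of 24 to 32 nt were most often 26 nt long and 13.98% of them (13.62 to 14.35) were 29 to 32 nt, and the spleen reads were most often 25 nt long and 31.32% (29.26 to 33.44) were 29 to 32 nt. The spleen values changed when the 12 windows high in spleen were left out. In the 738 windows the MEL reads of 24 to 32 nt were most often 26 nt long and 9.9% of them (8.91 to 10.96) were 29 to 32 nt, and in the 752 windows the spleen reads were most often 30 nt long and 53.88% (49.01 to 58.7) were 29 to 32 nt. In all 302 strong windows, whatever their testis length, these shares were 19.67% in MEL and 78.58% (77.81 to 79.34) in spleen. In testis they were 80.39% (79.86 to 80.9) in the 764 weak and 80.61% in the strong windows. The 764 were picked on their testis length, and the testis library was cut near 29 nt on a gel. Its shares are therefore no like measure for those of the immunoprecipitates. Among the windows of 29 to 32 nt with at least 5 MEL reads of 24 to 32 nt the most frequent of these lengths was 24 to 28 nt in 228 of 236. For spleen it was so in 24 of 35. The spleen share of the 752 windows rests on 425 reads.

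The excess of testis over MEL shrank with the testis level of the window. For windows with a most frequent length of 29 to 32 nt, the 24 to 32 nt reads were summed in bins of testis level. Scaling was to all reads of each library, of which 93.64% in testis, 34.9% in MEL and 9.45% in spleen were 24 to 32 nt long. Scaled to reads of that length instead, all the folds would be lower. With all windows kept, MEL would then be the higher library at every level under 100 RPM. Testis was 14.16-fold higher than MEL in the 152 windows of 1000 RPM or more (14.04 to 14.29), 5.55-fold (5.43 to 5.67) in the 139 of 100 to under 1000, 2.46-fold (2.36 to 2.56) in the 102 of 50 to under 100 and 1.49-fold (1.45 to 1.54) in the 276 of 20 to under 50. In the 386 windows of 10 to under 20 RPM it was 0.143-fold (0.142 to 0.145), that is, MEL was the higher library, and 1 window there held 19370 of the 28691 MEL reads. Without the 10 windows with most MEL reads in each bin the order was the same and the folds were 17.47, 13.5, 9.18, 5.12 and 3.34. The median MEL level of 24 to 32 nt reads fell from 243.5 RPM in the highest bin to 25.5, 6.07, 2.43 and 2.43 RPM, the last of which is 2 reads. The bins were formed on the testis level that also enters the fold, so the 2 are not independent.

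The folds over spleen, again scaled to all reads of each library, fell in the same order when all windows of a bin were summed. Testis exceeded spleen 57.06-fold (55.95 to 58.19) in the highest bin and 34.65, 25.72, 24.67 and 2.25-fold in the others. Without the 10 windows with most spleen reads in each bin that order was lost, and the folds were 63.64, 72.3, 152.8, 89.32 and 37.05, with intervals of 105.1 to 231.9 in the bin of 50 to under 100 RPM and 30.18 to 46.02 in that of 10 to under 20. Those values rest on 27 and 91 spleen reads, and the median window under 100 RPM had 0 spleen reads of this length. Levels of weak windows in testis and in MEL were related loosely: over the 764 windows of 29 to 32 nt, log2(RPM + 1) of 24 to 32 nt reads in testis gave Pearson's r of 0.23 and Spearman's rho of 0.26 against MEL, and 0.09 and 0.13 against spleen. Over the 291 strong windows of the same length class they were 0.86 and 0.88 with MEL and 0.87 and 0.88 with spleen. Windows of 1 library share its depth and are not replicates, and the range of testis levels is far narrower in the weak windows.

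**Figure D5:**
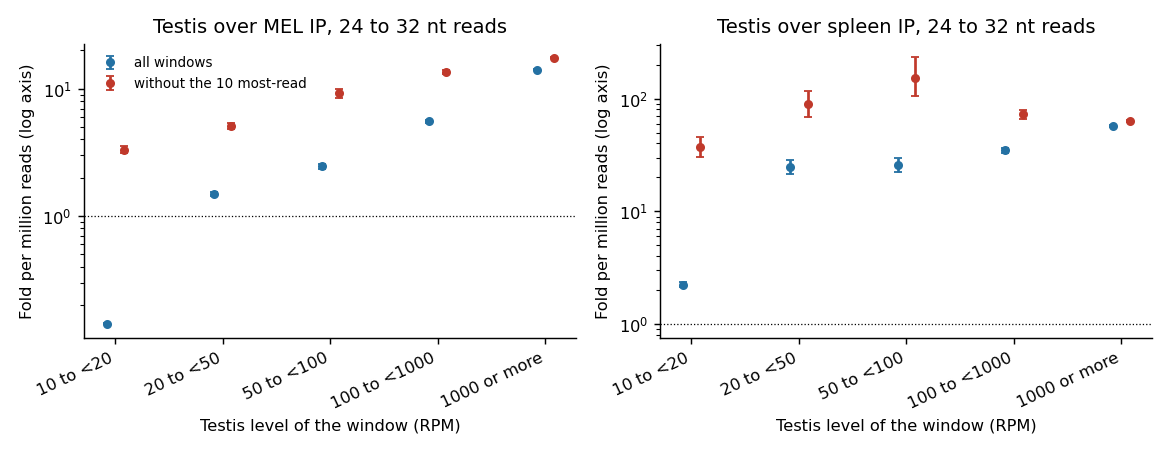
Testis level over that of the MEL (left) and spleen (right) immunoprecipitate in 24 to 32 nt reads (y axis, fold after scaling to all reads of each library, log) for windows with a most frequent testis length of 29 to 32 nt, by testis level in RPM (x axis); blue, all windows of the bin, red, without the 10 windows with most reads of the immunoprecipitate, bars 95% Poisson intervals of the immunoprecipitate's reads. Toward lower levels the MEL fold falls from 14.16 to 0.143 in blue and from 17.47 to 3.34 in red.

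Presence of reads was then counted per window. A MEL read of any length was found in 794 of the 901 weak windows, against 46.7% of all 24439 windows with a testis read, and a spleen read in 397, against 31.1%. At least 3 MEL reads of piRNA length, 24 to 32 nt, were found in 398 (44.17%, 40.9 to 47.49), against 7.37%. For spleen it was 79 windows (8.77%, 7.0 to 10.81) against 2.55%. Of the strong windows 96.03% and 73.18% had as many, and of the faint windows 4.79% and 1.39%. The weak windows lay between the 2 other levels in both libraries. Next to a strong window 54.74% of the 95 weak windows of 29 to 32 nt had at least 3 such MEL reads and beyond 1 Mb 44.54% of the 449 had, while for spleen it was 8.42% and 6.9%. The adjacent windows were also higher in testis, at 33.22 against 18.36 RPM.

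Some of the positions were shared. MEL reads of 24 to 32 nt had 3980 distinct left ends in the weak windows. Of these, 609 (15.3%, 14.2 to 16.46) were left ends of testis reads of that length, and of the 359 in spleen 106 were (29.53%, 24.85 to 34.54). In the strong windows the shares were 69.23% and 89.61%, where testis had 142566 left ends to match against 14953 in the weak windows, so the shares of the 2 levels cannot be set against each other at equal chance. Counted by reads, a left end found in testis was carried by 74.73% of the MEL and 55.0% of the spleen reads of this length in weak windows. Over the pooled reads the shared left ends were thus the more-read ones. Few windows weigh heavily in this: of the 106698 MEL reads, 19370 lay in 1 window on chromosome 6 and 16332 in 1 on chromosome 3. Counting intervals that share either end, 30.26% (29.03 to 31.51) of the 5341 MEL intervals did so: 10.37% shared both ends with testis intervals, 10.78% the left end alone and 9.1% the right end alone. Of the 553 spleen intervals 47.74% (43.51 to 52.0) shared either end and 23.69% both.

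The spacing of reads was measured last. In the germ line, piRNAs made by reciprocal cutting of both strands overlap by 10 nt at their 5′ ends, and piRNAs cut in sequence from 1 transcript follow each other end to start. Without the strand only the geometry of both patterns can be counted, as the left end of 1 read minus the right end of another. Such counts also take in pairs whose strands do not make the pattern. Among distinct testis intervals of 24 to 32 nt in the weak windows, 215 pairs overlapped by 10 nt, where 194 overlapped by 11 and 153 by 9, and the median over the other overlaps from 1 to 20 nt was 190. The ratio was 1.13, and 7 of the 19 other overlaps had as many pairs or more, each of them an overlap longer than 12 nt. With each window weighted equally the sum at 10 nt was 6.86, against 3.3 at 9 nt, 5.63 at 11 nt and a median of 5.44, a ratio of 1.26, and 5 of the 19 others were as high or higher. An end-to-start contact was found in 186 pairs, against a median of 171 over 35 other spacings, of which 12 had as many or more. In the strong windows the 2 ratios to the median were 0.97 and 0.987 over pairs, and 1.05 and 1.09 with each window weighted equally. With that weighting the contact ratio of the weak windows was 1.04. Neither spacing was the most frequent at either level. In the weak windows the overlap of 10 nt was above its neighbours, and in the strong windows only with each window weighted equally. Pairs whose strands do not make the pattern, on the same or on opposite strands, could not be left out.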

How the data were processed

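Small RNA reads of 2 MIWI2 immunoprecipitates (MEL cells, splenocytes) and of the testis band near 29 nt were used, 1 library each. The authors deposited positions, 1 line per mapped read with chromosome, start and end, which carry no strand, sequence, count or normalisation; these are no values of a fixed unit. Per the submitters' processing notes reads were mapped with Bowtie 0.12.7. The sources used here give no mapping options, no genome build, and nothing on trimming or on reads that match repeatedly. Starts count from 0, and length is end minus start. Positions on chromosome 7 reach 152523579, past the last gene of GRCm38.p6 at 145324059, so that annotation was not joined and no gene or sequence is given. Printed coordinates follow the files' build and count from 1.

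Reads were counted per 10 kb window and scaled to 1000000 lines of the file. On a tie the shorter length was taken as the most frequent. Shares carry exact Clopper-Pearson 95% intervals and folds and RPM exact Poisson 95% intervals; reads lack molecular identifiers, so PCR copies count. Depth was 692011 to 1143785 reads. No test was run, since each group had 1 library. Window rules, distances and spacing were tested on simulated data. Windows were named by rule: those with most reads per library or most left ends, the farthest, the longest runs and those at the thresholds; others are said to be chosen later. Members and rules were chosen with earlier results of these data known. Alternatives were a tiling shifted by 5 kb, 24 to 32 nt reads alone, distinct intervals, other thresholds, and a 2-fold call. Python 3.11.15, numpy 2.4.6, pandas 2.3.3, scipy 1.17.1 and matplotlib 3.10.9 were used.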

Additional observations from a re-analysis of the deposited data

Results flagged for a closer look

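Reads on the mitochondrial chromosome were outside the windows used here. It held 9 testis reads, 1822 MEL reads and 2372 spleen reads. Each number is above the 3 reads that stand as the floor for a count of 0, and there was no control library. They are given as values.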

How the results depend on the processing

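Of 67 recomputed values, 27 moved by less than counting error or 1.5 times and 40 by more. With 1 library a group no replicate could be left out. No paired analysis was possible because each group held 1 library. With the tiling shifted by 5 kb the weak windows held 2.3% of the testis reads, 84.63% of these were 24 to 32 nt long, and they held 23.7% of the MEL reads. With 24 to 32 nt reads alone they held 2.22% of testis, 33.3% of MEL and 6.05% of spleen; their 24 to 32 nt share is then fixed. With each distinct interval counted once, scaled to distinct intervals, 10 RPM stands for fewer intervals and the rule found 2399 windows with a median of 5 left ends. They held 6.6% of testis, 8.61% of MEL and 4.9% of spleen intervals, 89.14% of the testis intervals were 24 to 32 nt long, and 7.84% of the windows were next to a strong window. At least 3 such MEL intervals lay in 23.47% and 3 spleen intervals in 3.5%, and 10.8% of MEL and 24.11% of spleen left ends were shared with testis. At 20 to under 100 RPM there were 432 windows with a median of 23.5 left ends, 1.77% of testis, 10.56% of MEL and 18.27% of spleen reads. Of their testis reads 85.89% were 24 to 32 nt long, 17.59% of the windows were next to a strong window, 53.94% had 3 MEL reads of that length, and 19.19% of MEL and 36.64% of spleen left ends were shared. At 10 to under 50 RPM the windows held 1.63% of testis, 21.9% of MEL and 16.95% of spleen reads, 84.63% of those in testis being 24 to 32 nt long, 8.49% of the windows were adjacent, 40.43% had 3 MEL reads, and 12.96% of MEL left ends were shared. Chosen after seeing the data, leaving out the 10 most-read windows of a library gave 11.76% of MEL and 5.21% of spleen reads. At 2-fold, testis was higher than MEL in 653 windows and than spleen in 757, with the immunoprecipitate under 3 reads in 348 and 667 of them. With 24 to 32 nt reads scaled to those reads it was so in 68 and 0, where a call needed 41.75 and 183.6 RPM, the latter above the upper limit of a weak window, so no spleen call could be made. At 12 to 113 testis reads a window, levels of single windows have wide counting intervals, and the median of 0 spleen reads leaves single windows unresolved in spleen.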
